A study of Mus musculus with 6 samples.

Results

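The glycolysis and hypoxia response genes were examined in macrophages of healing mouse infarcts with and without the α5 integrin chain. The set comprised 39 gene symbols, chosen by name, which matched 40 of the 54532 rows of the deposited count table. Aldoa matched 2 rows, and the second, with at most 10 counts in any library, was under the expression filter, so 39 rows were tested among 14522 tested genes. For description the set was split into a glycolysis arm of 20 symbols (glucose uptake, the enzymes, their regulators and lactate handling) and an HIF arm of 19 symbols (the hypoxia-inducible factors, their regulators and other target genes).

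RNA-seq libraries from 3 ITGA5 fl/fl and 3 Myα5KO mice were compared. All animals were C57BL/6, carried Itga5 alleles flanked by recombination sites, were 12 weeks old and had undergone permanent occlusion of the left anterior descending coronary artery 7 days earlier, so no library came from an uninjured heart. In Myα5KO animals Cre recombinase was expressed from the lysozyme M promoter, which is active in macrophages, monocytes and neutrophils. The controls were littermates without Cre, so the presence of Cre and the loss of α5 cannot be told apart here. Ly6G-negative, CD11b-positive cells were isolated on magnetic columns from individual hearts. Levels are given as CPM, reads per gene relative to library size after TMM scaling in edgeR, or as FPKM, which also divides by gene length. Values per library are listed in replicate order, ITGA5 fl/fl libraries preceding Myα5KO libraries.

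Glycolysis splits glucose into pyruvate in the cytosol and yields ATP without oxygen; lactate dehydrogenase then converts pyruvate to lactate, which leaves the cell on monocarboxylate transporters. Hypoxia-inducible factors (HIF) are dimers of an oxygen-regulated α subunit and ARNT. In oxygenated cells prolyl hydroxylases mark the α subunit for VHL-dependent degradation, and in hypoxia, or after inflammatory stimulation of macrophages, the stabilized dimer binds DNA at the core letters ACGTG or GCGTG and activates genes of glucose uptake, glycolysis, lipid storage and angiogenesis. Because HIF-1α is controlled mainly as a protein, its mRNA level does not measure its activity.

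Total counts lay between 15424451 and 18419287 per library. Itga5 itself measured 653, 568 and 599.6 CPM in controls and 50.0, 49.0 and 47.1 CPM in knockout libraries, which is 8.02% of the control mean. The macrophage identity of the cells was checked with 12 markers, all of which passed the filter. Their summed level was 25509 to 26137 CPM in ITGA5 fl/fl against 20243 to 20689 CPM in Myα5KO libraries, and 18268 to 18549 against 16278 to 17078 CPM when Lyz2, the locus that carries Cre, was left out. Of the 12, Lyz2 and Cd14 were lower and Fcgr1 was higher, whereas Adgre1, Csf1r, Mertk and the C1q genes were not called. Granulocyte markers summed to 192 to 235 CPM in ITGA5 fl/fl and 262 to 387 CPM in Myα5KO libraries, with 7 of 10 tested genes higher and Ly6g near 0 in every library. Monocyte markers summed to 271 to 354 against 419 to 423 CPM, with 3 of 5 higher. Cardiomyocyte markers moved the other way, from 23.2 to 26.1 down to 14.9 to 17.8 CPM with 3 of 8 tested genes lower, as did fibroblast markers, from 1630 to 1909 down to 1225 to 1590 CPM with 1 of 9 lower. Endothelial markers overlapped, with 1 higher and 1 lower of 9, and 2 of 5 B cell and 1 of 6 dendritic cell markers were higher; no T, NK or erythroid marker was called. The part of these cell types in the results below was not tested, and in bulk RNA fewer cells of a type cannot be told apart from less RNA per cell.

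Loss of α5 was accompanied by lower mRNA of 9 of the 39 genes and by higher mRNA of none, while 30 were not called. The 9 were the glucose transporter Slc2a1, the hexokinases Hk1 and Hk2, the enolase Eno2, the lactate exporter Slc16a3, the lipid droplet protein gene Hilpda, the stress gene Ddit4, Ndrg1, and the MYC antagonist Mxi1. Among all tested genes 754 (5.19%) were lower and 517 (3.56%) higher at an adjusted p of 0.05 or less. In the set the share lower was 23.1%, or 5 of 20 in the glycolysis arm (25%) and 4 of 19 in the HIF arm (21.1%). Both arms thus held lowered genes, and the difference between the arms was not tested. The set and the further lists below were chosen with earlier results of these data known. Their shares are therefore descriptions and cannot measure an excess over all tested genes. At an unadjusted p under 0.05 edgeR gave 2 higher genes, Pdk1 and Ankrd37, and neither DESeq2 nor limma-voom called a higher gene of the set. Of all 39, 29 log2 fold changes were negative and 10 positive, against 6854 negative and 7668 positive among all tested genes. With library totals as the only scaling 23 of the 39 were negative. The median log2 fold change was -0.15 over the set, -0.17 in the glycolysis arm and -0.10 in the HIF arm, against 0.01 over all tested genes.

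In 15 of the 39 genes all Myα5KO libraries lay below all ITGA5 fl/fl libraries, and in 4 they lay above. Such separation was found in 13.8% of all tested genes for lower and 14.9% for higher values. Libraries within a group were close, with a median coefficient of variation over the set of 7.85% in ITGA5 fl/fl and 6.96% in Myα5KO. Myα5KO replicate 3 had the lowest value of its group for 21 of the 39 genes and for 15 of the 20 in the glycolysis arm, and ITGA5 fl/fl replicate 1 the lowest of its group for 24 and 13. Leaving out either library changed the number of lowered genes from 9 to 8 and 11, respectively.

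**Figure D1:**
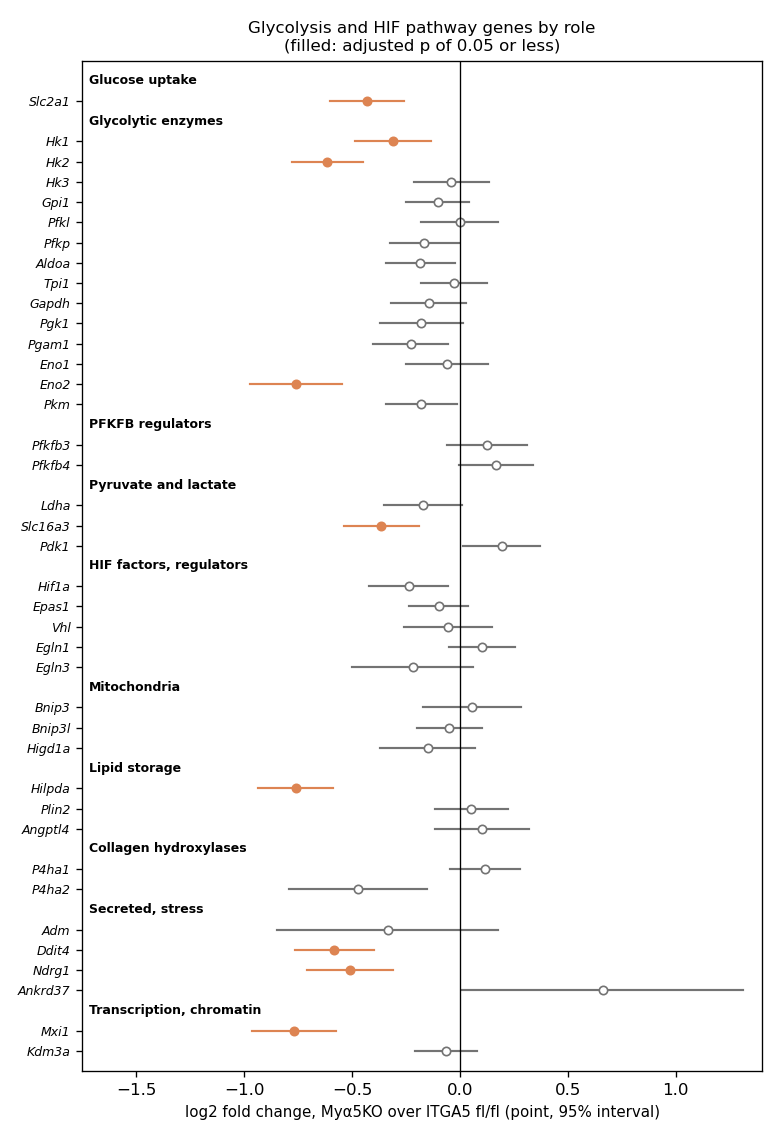
Log2 fold change (Myα5KO over ITGA5 fl/fl, point) with 95% interval (line) for the 39 tested genes, grouped by role; filled orange points have an adjusted p of 0.05 or less. The 9 filled points all lie left of 0, from -0.31 for Hk1 to -0.77 for Mxi1, and are spread over both arms.

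Promoter sequences are shown because the set is defined in part by a DNA-binding factor and the lowered and the uncalled genes can be compared at the letters that factor reads. RefSeq windows (build GRCm38.p6, 250 bases before to 50 after a RefSeq start of a gene) were found for 35 of the 39 genes. Ndrg1, Epas1, Bnip3l and Angptl4 had no entry in the table. Both strands were searched for ACGTG and GCGTG. For 5 lowered genes (Slc2a1, Hk2, Slc16a3, Ddit4, Mxi1) and 2 abundant enzymes that were not called (Ldha, Pgk1), the part upstream of the annotated exon is printed 5′ to 3′ on the strand of the gene, with matches on either strand in capitals (CACGT and CACGC being the letters of a match on the opposite strand). The Slc2a1 stretch covers chr4:119108495-119108713 and includes the first 3 exon bases at its end. The others are chr6:82774455-82774704 for Hk2, chr11:120948817-120949052 for Slc16a3, chr10:59951835-59952020 for Ddit4, chr19:53329163-53329412 for the second of 3 windows of Mxi1, chr7:46845554-46845803 for the first window of Ldha and chrX:106186850-106187099 for Pgk1. The Slc16a3, Mxi1 and Ldha stretches lie inside the gene spans of the count table, downstream of the first base of the gene. The first window of Mxi1, at that first base, held 0 matches. A further Slc16a3 match at -14 to -10 lies beyond the printed stretch.
Slc2a1: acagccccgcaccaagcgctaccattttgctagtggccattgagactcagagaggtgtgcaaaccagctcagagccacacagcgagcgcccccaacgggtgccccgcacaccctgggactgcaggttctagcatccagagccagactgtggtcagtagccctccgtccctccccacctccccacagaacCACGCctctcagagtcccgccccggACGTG
Hk2: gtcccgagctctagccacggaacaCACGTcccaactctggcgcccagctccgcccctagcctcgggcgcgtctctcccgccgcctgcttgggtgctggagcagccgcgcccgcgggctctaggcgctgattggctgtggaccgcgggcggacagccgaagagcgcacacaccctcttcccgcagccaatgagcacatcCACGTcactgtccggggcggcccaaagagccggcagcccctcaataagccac
Slc16a3: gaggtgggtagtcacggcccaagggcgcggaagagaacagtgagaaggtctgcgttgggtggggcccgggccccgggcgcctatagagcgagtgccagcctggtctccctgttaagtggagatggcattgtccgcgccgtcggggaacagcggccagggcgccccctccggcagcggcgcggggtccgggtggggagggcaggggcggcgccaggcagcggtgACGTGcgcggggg
Ddit4: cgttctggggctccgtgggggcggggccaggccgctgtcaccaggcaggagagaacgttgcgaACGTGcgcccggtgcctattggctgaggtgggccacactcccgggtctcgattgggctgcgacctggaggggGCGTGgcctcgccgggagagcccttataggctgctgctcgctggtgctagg
Mxi1: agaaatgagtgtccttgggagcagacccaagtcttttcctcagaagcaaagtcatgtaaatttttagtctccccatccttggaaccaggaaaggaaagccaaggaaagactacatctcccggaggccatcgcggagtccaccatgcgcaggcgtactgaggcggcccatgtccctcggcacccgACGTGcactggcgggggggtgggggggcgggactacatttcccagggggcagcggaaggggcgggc
Ldha: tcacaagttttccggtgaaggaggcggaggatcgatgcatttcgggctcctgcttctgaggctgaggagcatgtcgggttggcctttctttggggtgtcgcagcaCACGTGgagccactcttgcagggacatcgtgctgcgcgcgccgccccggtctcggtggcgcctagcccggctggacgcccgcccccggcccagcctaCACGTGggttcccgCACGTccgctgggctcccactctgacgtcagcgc
Pgk1: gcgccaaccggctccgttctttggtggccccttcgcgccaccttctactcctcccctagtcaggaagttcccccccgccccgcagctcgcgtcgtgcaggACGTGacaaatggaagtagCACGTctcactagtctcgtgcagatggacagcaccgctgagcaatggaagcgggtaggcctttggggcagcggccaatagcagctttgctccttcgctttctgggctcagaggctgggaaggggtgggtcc

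Slc2a1, Hk2, Ddit4 and Pgk1 each showed 2 matches in the printed stretch, Slc16a3 and Mxi1 1 each, and Ldha 5. In Ldha 4 of the 5 arose at 2 places where CACGTG, which reads the same on both strands, counts on each. A match was present in at least 1 window of 7 of the 8 lowered genes with an entry (87.5%) and of 24 of the 27 uncalled genes (88.9%), so its presence did not separate these groups. The window of Eno2 held none of these letters. Over the set 31 of 35 genes had a match (88.6%), compared with 65.9% of the tested genes and 46.7% of all genes in the table. Base composition differed too, with a median GC content of 64.3% in the windows of the set, 60.3% for tested genes and 52.7% for all windows; its part in the matches was not tested. A match is a string of letters and not a measured binding site.

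**Figure D2:**
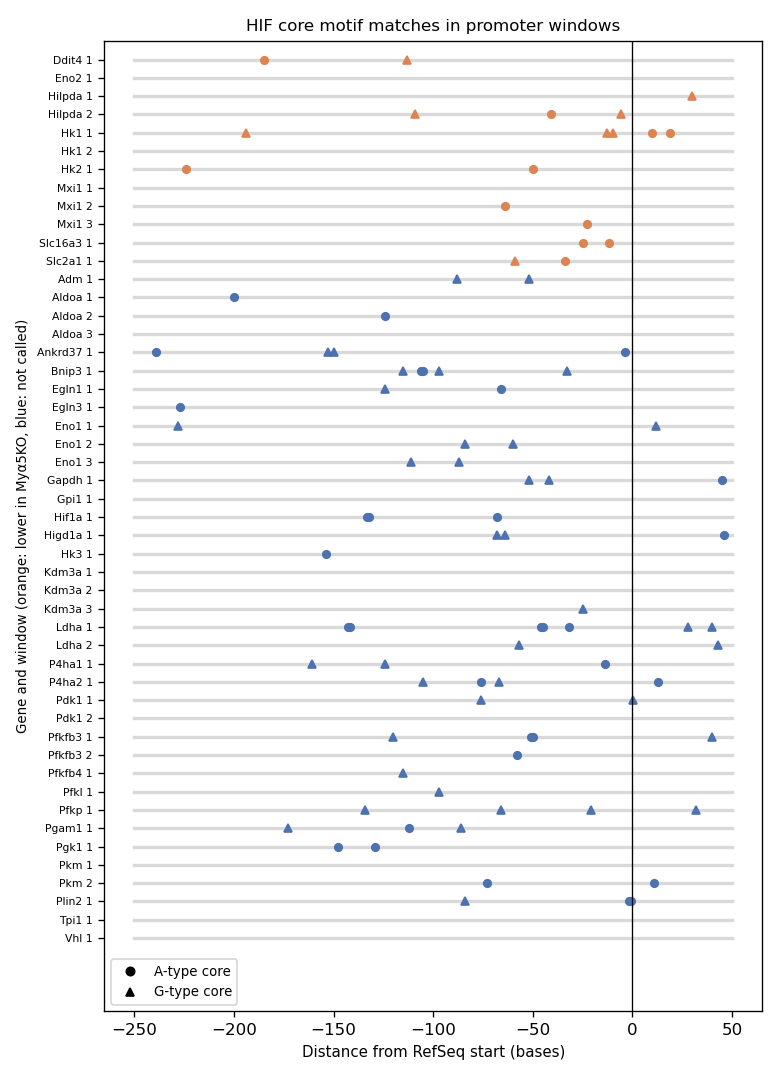
Position of core matches (circle, ACGTG; triangle, GCGTG; either strand) in the 49 promoter windows of 35 genes, in bases from the RefSeq start; each grey line is 1 window, labelled by gene and window number. Windows of lowered genes (orange) and of genes not called (blue) both hold matches, in 9 of 12 and in 29 of 37 windows.

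Glucose enters macrophages mainly through GLUT1, encoded by Slc2a1 (chr4:119108711-119137983, GRCm38). Slc2a1 measured 249, 229 and 233 CPM in ITGA5 fl/fl and 179, 192 and 156 CPM in Myα5KO libraries. All knockout libraries lay below all controls, at 74.2% of the control mean (log2 fold change -0.43, SE 0.08, adjusted p = 0.00531). Of the other facilitative glucose transporters, Slc2a6 also fell, from 47.1, 53.6 and 56.3 to 37.7, 45.2 and 40.0 CPM (log2 fold change -0.35, adjusted p = 0.0243), although this call was lost in 8 of 17 alternative analyses, among them the omission of ITGA5 fl/fl replicate 2 or 3 or of Myα5KO replicate 1 or 3. Slc2a3 was low in all libraries and not called (log2 fold change 0.08). Slc2a1 carried 79.2% ± 1.97 (SD, n = 3) of the FPKM of these 3 transporters in controls and 77.8% ± 1.76 in knockout libraries, with overlapping groups.

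Hexokinases trap glucose in the cell by phosphorylation, and of the 3 hexokinase genes Hk2 and Hk1 fell and Hk3 was not called. Hk2 (chr6:82725025-82774454), the inducible form, measured 198, 197 and 227 CPM in ITGA5 fl/fl and 136, 144 and 126 CPM in Myα5KO libraries. These groups were well separated, at 65.4% of the control mean (log2 fold change -0.61, SE 0.08, adjusted p = 0.000371). Hk1 (chr10:62268855-62379908), the constitutive form, measured 82.8, 91.8 and 94.0 CPM against 78.5, 74.3 and 63.9 CPM. Its decrease to 80.7% passed the threshold with a narrow gap between the groups (log2 fold change -0.31, SE 0.08, adjusted p = 0.0325), and the call was lost in 8 of 17 alternatives, among them the omission of ITGA5 fl/fl replicate 2 or 3 or of Myα5KO replicate 2 or 3, with an adjusted p of up to 0.259. Hk3, the form enriched in myeloid cells, measured 103, 106 and 126 CPM against 116, 106 and 103 CPM, and the groups overlapped (log2 fold change -0.04, 95% interval -0.21 to 0.13). The intervals of Hk2 (-0.78 to -0.45) and Hk3 did not overlap, whereas those of Hk1 (-0.49 to -0.13) and Hk3 did; the paralogs were not tested against each other.

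As a share of the FPKM of these hexokinases, Hk2 held 46.8, 45.5 and 45.7% in the ITGA5 fl/fl and 35.8, 39.1 and 37.3% in the Myα5KO libraries. The share of Hk3 moved in the opposite direction, from 39.6, 39.6 and 41.1% to 49.7, 46.8 and 49.4%, while that of Hk1 stayed between 13.2 and 14.9% in all 6 libraries. Shares within a family depend on each other, so a fall of Hk2 by itself raises the share of Hk3. The CPM of Hk3 overlapped between the groups. Hk2 was thus the most abundant hexokinase mRNA in each control library and Hk3 in each knockout library. Shares are given as a description and were not tested.

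**Figure D3:**
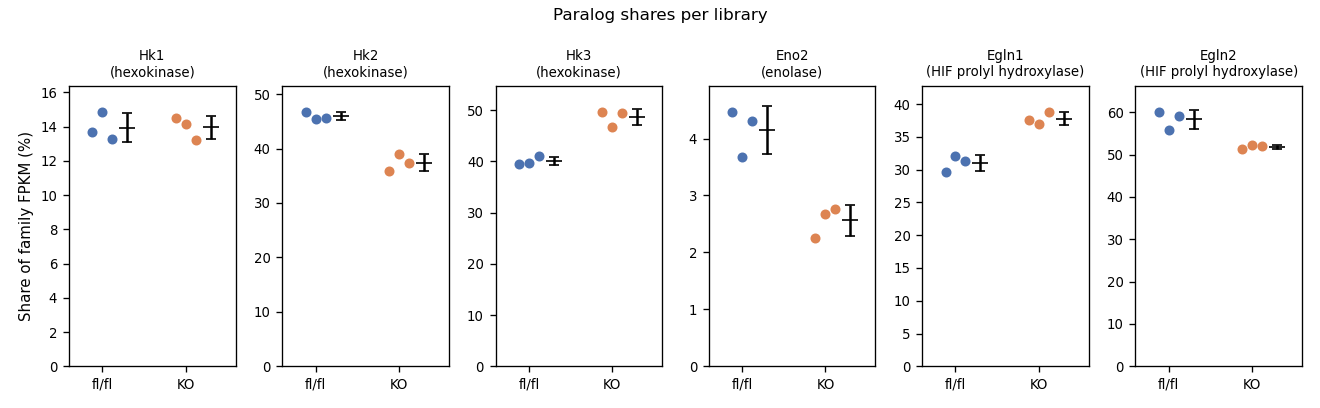
Share of the family's summed FPKM (%) taken by Hk1, Hk2, Hk3, Eno2, Egln1 and Egln2 in each library (points), with mean and SD (n = 3) beside them; each axis starts at 0 and has its own scale. Hk2 averages 46.0% in ITGA5 fl/fl (fl/fl) and 37.4% in Myα5KO (KO), and Hk3 40.1% and 48.6%, with no overlap between groups.

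Downstream of the hexokinases the mRNAs of the enzymes with the highest FPKM, from Gapdh at 285 to Pgam1 at 81.1 FPKM in controls, were not called. Gapdh, which oxidizes glyceraldehyde phosphate, measured 1064, 1219 and 1271 CPM in ITGA5 fl/fl and 1079.6, 1125 and 1012 CPM in Myα5KO libraries, with overlapping groups (log2 fold change -0.14, 95% interval -0.32 to 0.03). Pkm, the final, pyruvate-forming kinase, measured 1072, 1127 and 1193 CPM against 1053, 1022 and 923 CPM, which did not overlap but gave an adjusted p of 0.175 (log2 fold change -0.18, 95% interval -0.34 to -0.01). The aldolase Aldoa gave 736, 833 and 845 CPM against 725, 728 and 675 CPM, again without overlap and with an adjusted p of 0.158. The phosphoglycerate mutase Pgam1 was closest to the threshold, at 150.0, 147 and 149.7 CPM against 142, 129 and 111 CPM (log2 fold change -0.23, adjusted p = 0.105). Its knockout libraries were all lower than its controls, and the call was made only when Myα5KO replicate 1 was left out.

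The isomerases Gpi1 and Tpi1 had log2 fold changes of -0.10 and -0.03 (95% intervals -0.25 to 0.04 and -0.18 to 0.12). Phosphofructokinase commits sugar to glycolysis; its liver-type gene Pfkl measured 73.3, 94.6 and 85.7 CPM against 85.8, 84.4 and 83.7 CPM and its platelet-type gene Pfkp 225, 212 and 199.6 CPM against 200.2, 194 and 174 CPM, with log2 fold changes of 0.00 and -0.16 and overlapping groups for both. Phosphoglycerate kinase Pgk1 had a log2 fold change of -0.18 (95% interval -0.37 to 0.01) and was called only without ITGA5 fl/fl replicate 1, its lowest control. Over the 14 enzymes 3 were lower (21.4%, against 5.19% of all tested genes) and none was higher. Of the 14 log2 fold changes 13 were negative, against 6854 of the 14522 tested genes.

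Enolase converts phosphoglycerate to phosphoenolpyruvate, and of its 2 genes in the set Eno2 fell and Eno1 was not called. Eno1, the ubiquitous form, measured 519, 640.1 and 621 CPM in ITGA5 fl/fl and 606, 579 and 523 CPM in Myα5KO libraries, with overlapping groups (log2 fold change -0.06, 95% interval -0.25 to 0.13). Eno2 (chr6:124760053-124769673), known as the neuronal form and as an HIF target, measured 22.2, 22.3 and 25.5 CPM against 12.8, 14.8 and 13.8 CPM. It fell to 59.1% of the control mean (log2 fold change -0.76, SE 0.10, adjusted p = 0.000627) and to 2.56% ± 0.27 (SD, n = 3) of enolase FPKM from 4.15% ± 0.41. As Eno1 supplied 91.8% and 92.2% of enolase FPKM in the 2 groups, the lowered paralog was a minor part of this step's mRNA.

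**Figure D4:**
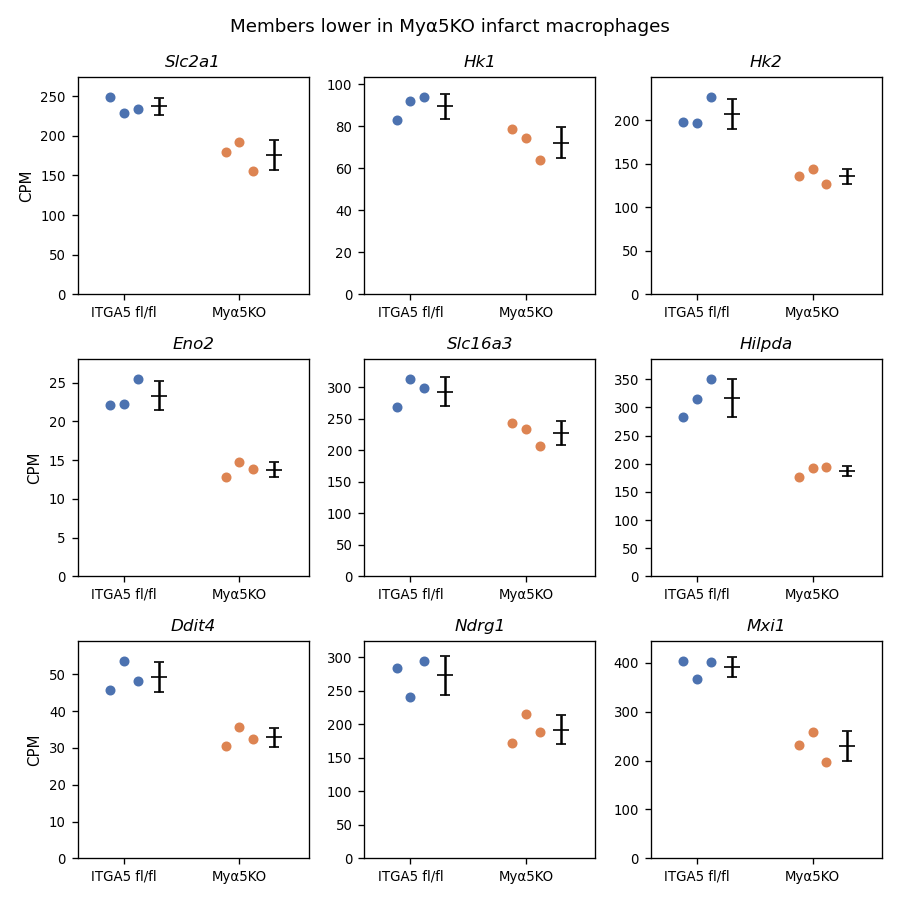
CPM in each library (points) with mean and SD (n = 3, bar beside the points) for the 9 genes lower in Myα5KO; each axis starts at 0. In all 9 panels the 3 Myα5KO points lie below the 3 ITGA5 fl/fl points, with the smallest gap for Hk1 (78.5 against 82.8 CPM).

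The bifunctional enzymes Pfkfb3 and Pfkfb4 set the level of a regulatory fructose bisphosphate, which activates phosphofructokinase and is not the product of that enzyme. Neither gene was called. Pfkfb3 measured 265, 234 and 249.7 CPM against 237, 296 and 283 CPM (log2 fold change 0.13, 95% interval -0.06 to 0.31). Pfkfb4 measured 49.2, 51.1 and 41.8 CPM against 52.3, 53.3 and 53.9 CPM, with all knockout libraries above the controls and an adjusted p of 0.228. Both are known as HIF targets. Their 95% intervals (-0.06 to 0.31 for Pfkfb3, -0.004 to 0.34 for Pfkfb4) did not overlap those of Hk2 (-0.78 to -0.45) or Slc2a1 (-0.60 to -0.26). These genes were not tested against each other.

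At the end of the pathway lactate dehydrogenase Ldha measured 425, 507 and 539 CPM in ITGA5 fl/fl and 429.6, 448 and 432 CPM in Myα5KO libraries. The groups overlapped, because ITGA5 fl/fl replicate 1 lay below all Myα5KO libraries (log2 fold change -0.17, 95% interval -0.35 to 0.01). Slc16a3 (chr11:120948480-120960868), which encodes the lactate exporter MCT4, measured 268, 313 and 298 CPM against 243, 234 and 206 CPM. It fell to 77.7% of the control mean (log2 fold change -0.36, SE 0.08, adjusted p = 0.0135). With ITGA5 fl/fl replicate 2 or 3 left out, neither Slc16a3 nor Hk1 was called, and the number of lowered genes in the glycolysis arm went from 5 to 3. The related transporter Slc16a1 fell as well, from 42.7, 41.9 and 43.1 to 32.0, 34.9 and 35.8 CPM (log2 fold change -0.32, adjusted p = 0.0175; lost in 5 of 17 alternatives, including the omission of ITGA5 fl/fl replicate 2 or 3 or of Myα5KO replicate 1). Pdk1, the kinase that inhibits mitochondrial pyruvate dehydrogenase, measured 26.3, 27.5 and 24.5 CPM against 31.5, 29.3 and 28.8 CPM, with all knockout libraries above the controls (log2 fold change 0.19, adjusted p = 0.178).

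A further 30 genes of glycolysis outside the set, listed by name, were read for comparison, and 22 of them passed the filter. Slc2a6 and Slc16a1 were lower, which is 9.09% of the tested genes of this list against 5.19% of all tested genes, none was higher, and the median log2 fold change was -0.02. The pyruvate carrier genes Mpc1 and Mpc2 and the dehydrogenase subunit Pdha1 gave log2 fold changes of 0.16, -0.03 and -0.02.

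**Figure D5:**
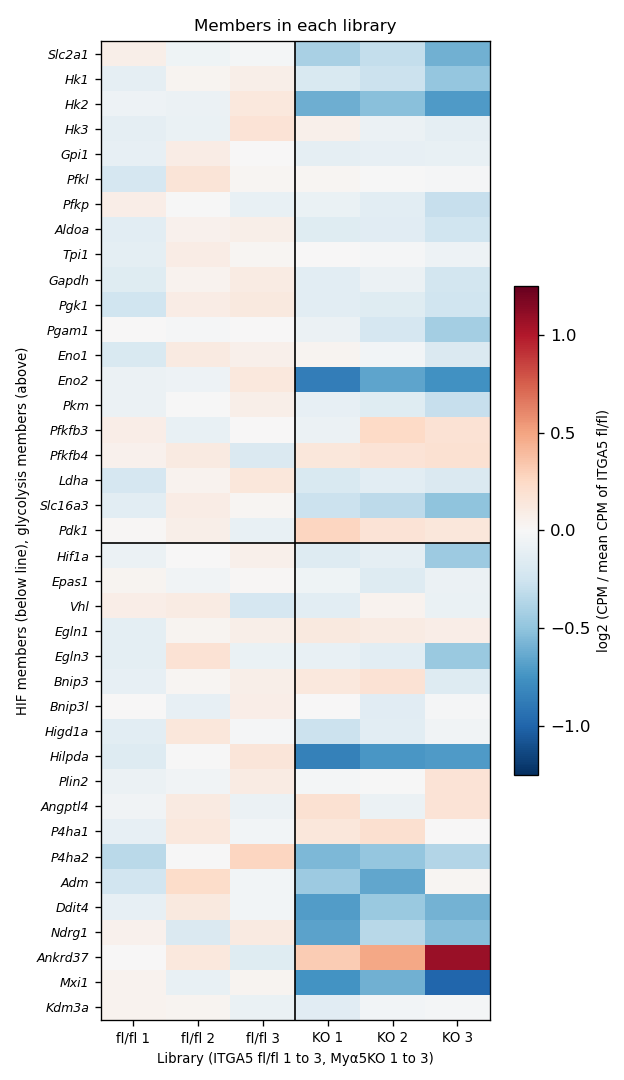
Log2 ratio of CPM in each library to the mean of the ITGA5 fl/fl libraries for the 39 genes (blue, lower; red, higher); the horizontal line divides the glycolysis arm (above) from the HIF arm (below), the vertical line the groups. Hk2, Eno2, Hilpda, Ddit4 and Mxi1 are blue in all 3 Myα5KO libraries, while Plin2, Pdk1 and Egln1 are not.

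Among the factors themselves, Hif1a measured 206, 217 and 225 CPM in ITGA5 fl/fl and 192, 199 and 157 CPM in Myα5KO libraries. The groups did not overlap, but the adjusted p was 0.106 (log2 fold change -0.24, 95% interval -0.42 to -0.06) and the decrease was called in 1 of 17 alternatives, the one without a count filter. Epas1, which encodes HIF-2α, measured 89.6, 84.5 and 88.2 CPM against 84.1, 78.1 and 82.9 CPM, with a log2 fold change of -0.10 (95% interval -0.23 to 0.04). Hif1a supplied 68.9% ± 1.34 (SD, n = 3) of the FPKM of the 2 α subunit genes in controls and 66.7% ± 3.34 in knockout libraries. Arnt, the constitutive partner and not in the set, was lower, at 119, 115 and 117 CPM against 102, 102 and 91.3 CPM (log2 fold change -0.25, adjusted p = 0.0316), a call that was lost in 9 of 17 alternatives, including every omission of a single library other than Myα5KO replicate 1.

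Of the genes that mark HIF-α for degradation, none in the set was called. Vhl, the recognition subunit of the ubiquitin ligase, measured 33.3, 33.8 and 27.2 CPM against 28.7, 32.3 and 29.7 CPM. The prolyl hydroxylase Egln1 measured 45.0, 50.1 and 51.6 CPM against 53.1, 52.4 and 51.9 CPM, with the knockout libraries just above the controls (log2 fold change 0.10, 95% interval -0.05 to 0.25). Egln3, the hypoxia-induced hydroxylase, had a log2 fold change of -0.22 (95% interval -0.50 to 0.06). Their paralog Egln2, outside the set, fell from 71.1, 68.0 and 75.8 to 56.5, 57.6 and 54.2 CPM (log2 fold change -0.35, SE 0.07, adjusted p = 0.00617). In shares of hydroxylase FPKM, Egln1 went from 29.6, 32.0 and 31.3% to 37.5, 37.0 and 38.8% and Egln2 went from 60.1, 55.8 and 59.0% to 51.3, 52.2 and 52.0%, again as values without a test. Of 12 further regulators listed by name 10 were tested; Arnt and Egln2 were lower (20% of those tested, against 5.19% of all tested genes), the coactivator antagonist Cited2 was higher (131, 123 and 115 CPM against 138, 152 and 161 CPM, log2 fold change 0.29, adjusted p = 0.0294, lost in 8 of 17 alternatives, including the omission of replicate 2 or 3 of either group), and the median log2 fold change was -0.09.

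The HIF targets in the set divided by gene. Hilpda (chr6:29272488-29275446) encodes a small protein that inhibits triglyceride lipolysis on lipid droplets. Among the genes of the set it had the highest FPKM in the controls, at 286 ± 30.2 FPKM (SD, n = 3). This level did not differ beyond its spread from Gapdh (285 ± 25.7 FPKM) or Plin2 (285 ± 19.0 FPKM). Hilpda measured 284, 316 and 351 CPM in ITGA5 fl/fl and 176, 192 and 193 CPM in Myα5KO libraries. The fall to 59.0% of the control mean had the smallest adjusted p of the set (log2 fold change -0.76, SE 0.08, adjusted p = 0.00016). The other 2 genes of lipid storage were not called. Plin2, which coats lipid droplets, measured 956, 976 and 1079 CPM against 990.2, 1001 and 1131 CPM (log2 fold change 0.05, 95% interval -0.12 to 0.22), and the secreted lipase inhibitor Angptl4 18.8, 21.0 and 18.4 CPM against 22.1, 18.5 and 21.8 CPM. In FPKM, Hilpda and Plin2 were thus level in the controls, and 168 ± 7.82 against 294 ± 19.6 FPKM in the knockout libraries.

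Mxi1 (chr19:53310506-53375810) encodes a MAX partner that opposes MYC and fell by about as much as Hilpda and Eno2. It measured 404, 367 and 401 CPM in ITGA5 fl/fl and 233, 258 and 197 CPM in Myα5KO libraries, with Myα5KO replicate 3 the lowest (log2 fold change -0.77, SE 0.09, adjusted p = 0.000274). Without that replicate the log2 fold change was -0.67 and the decrease remained called. The histone demethylase gene Kdm3a, read beside it as a chromatin target, measured 75.9, 75.1 and 69.5 CPM against 66.5, 71.8 and 72.3 CPM and was not called (95% interval -0.21 to 0.08).

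Ddit4 (chr10:59949669-59951834), whose product REDD1 restrains mTORC1 in hypoxia and energy stress, measured 45.7, 53.6 and 48.1 CPM in ITGA5 fl/fl and 30.4, 35.6 and 32.6 CPM in Myα5KO libraries. It fell to 66.8% of the control mean (log2 fold change -0.58, SE 0.08, adjusted p = 0.00124). Ndrg1 (chr15:66929318-66969640), a hypoxia- and differentiation-induced gene, measured 284, 240.4 and 295 CPM against 172, 215 and 189 CPM. Its groups did not overlap, and it fell to 70.3% (log2 fold change -0.51, SE 0.09, adjusted p = 0.00495). The peptide hormone gene Adm was close to the lower end of detection, at 2.41, 3.35 and 2.79 CPM against 2.08, 1.82 and 2.89 CPM, and its interval was wide (-0.85 to 0.18). Ankrd37 gave the highest log2 fold change of the set, 0.66, from 1.07, 1.17 and 0.967 to 1.33, 1.50 and 2.26 CPM, and was not called (adjusted p = 0.207). Its 149 counts over all libraries are uncertain, because it overlaps the opposite-strand gene Ufsp2, which held 2912, and whether counting used strand is not given in the sources used here.

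No gene of mitochondrial adaptation was called. Bnip3 and Bnip3l, receptors that target mitochondria for autophagy, measured 18.1, 19.8 and 20.4 against 21.2, 22.0 and 17.4 CPM and 123, 115 and 130.0 against 123, 111 and 121 CPM, and the respiratory supercomplex factor Higd1a 18.6, 22.4 and 20.1 against 16.9, 18.6 and 19.8 CPM. All 3 had overlapping groups and 95% intervals that included 0. The collagen prolyl hydroxylases, which stabilize the collagen helix, split in value but not in call. P4ha1 measured 107, 126 and 112 CPM against 127, 132 and 115 CPM (log2 fold change 0.12), whereas P4ha2 measured 9.25, 11.6 and 14.1 CPM against 7.88, 8.35 and 9.04 CPM without overlap (log2 fold change -0.47, adjusted p = 0.0656) and was called in 3 of 17 alternatives. P4ha2 is also expressed by fibroblasts, whose summed markers were lower in the knockout libraries, and the part of these cells was not tested.

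Beyond the set, 40 further HIF targets were listed by name and 38 passed the filter. Of these 10 (26.3%) were lower and 1 higher, against 5.19% lower and 3.56% higher among all tested genes, with a median log2 fold change of -0.16. The list was chosen with earlier results of these data known, so its share is a description and cannot measure an excess. Among its genes, Vegfa and Lox had been reported by the study as lower in Myα5KO infarct macrophages. Heme oxygenase Hmox1, which degrades heme, fell from 1868, 2166 and 2640.3 to 1240.1, 1470.1 and 1232 CPM (log2 fold change -0.76, adjusted p = 0.00143). Plaur, the urokinase receptor, fell from 452, 479 and 482 to 304, 307 and 315 CPM (log2 fold change -0.61, adjusted p = 0.000153), and its decrease was called in all 17 alternatives. Lower values were also called for the collagen cross-linking enzymes Lox (log2 fold change -0.62) and Loxl2 (-0.51), the growth factors Tgfb3 (-0.50) and Vegfa (-0.40), and the transcription regulators Bhlhe40 (-0.43) and Rora (-0.37). Arginase Arg1 was called at a log2 fold change of -1.60, but its controls ranged widely, at 101, 592 and 291 CPM against 127, 102 and 95.1 CPM, and the call was lost in 10 of 17 alternatives, DESeq2 among them; without ITGA5 fl/fl replicate 2 the log2 fold change was -0.86. Narf alone was higher (log2 fold change 0.38, adjusted p = 0.0277). Single omissions ended the calls of Vegfa (ITGA5 fl/fl replicate 1 or 2; log2 fold changes -0.51 to -0.30 over the omissions), Rora (ITGA5 fl/fl replicate 2; -0.43 to -0.33), Loxl2 (ITGA5 fl/fl replicate 1 or 3, Myα5KO replicate 1 or 3; -0.64 to -0.39) and Narf (ITGA5 fl/fl replicate 2 or 3, Myα5KO replicate 1 or 3; 0.30 to 0.47). Lox and Loxl2 are fibroblast genes as well as HIF targets.

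Counting of near-identical copies could affect the enzymes, as many have processed pseudogenes. The 10 copies of set genes that were found by name or description with any count held at most 102 counts over all libraries. None was a copy of Aldoa or Gapdh, which themselves held 80091 and 119500 counts. Multi-mapping settings are not given in the sources used here. Low counts at copies therefore cannot show how many reads of the enzymes were lost. Genes overlapping a member on the genome held over 5% of its counts for 5 of the 40 rows: Ankrd37, the untested Aldoa row, Pfkp (16.7%, Pitrm1), Tpi1 (9.68%, Spsb2) and Pkm (8.31%, a same-strand transcript). None of these 5 was among the lowered genes, and the overlapping genes of Slc2a1 each held at most 2.52% of its counts.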

How the data were processed

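Poly(A) RNA from Ly6G-CD11b+ cells of 3 ITGA5 fl/fl and 3 Myα5KO infarcts was sequenced as paired-end reads. Per the labels and methods, the authors aligned filtered reads to GRCm38.p6 (mm10) with TopHat2 2.0.9, assembled them with Cufflinks 2.1.1 and counted reads per gene with HTSeq 0.6.1; strand and multi-mapping settings are not given in the sources used here. The deposited counts are whole, unnormalized read counts per gene, and the deposited FPKM values equal count divided by the deposited gene length and a constant per library (largest relative deviation 5.11e-15). Total counts were 15424451 to 18419287 per library, and reads carry no molecular identifiers. Standard errors and intervals were derived from the log2 fold change and F statistic of the edgeR fit. That fit combines each gene's spread over the 3 libraries of each group with a trend over all tested genes (prior degrees of freedom 9.50). The intervals therefore do not rest on the spread of these libraries alone.

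Groups came from the sample titles. Differences were tested by the edgeR 4.0.16 quasi-likelihood method (R 4.3.3) with TMM factors and filterByExpr (minimum count 10, minimum total 15), without covariates. P-values are two-sided and Benjamini-Hochberg adjusted over all 14522 tested genes. The methods of the study name DESeq2 with a threshold of 0.05 on adjusted p; DESeq2 1.42.0, limma 3.58.1 (voom, and trend on log2(FPKM + 1) or log2(FPKM + 0.1)), other scalings and filters, a replicate block and the omission of each library were alternatives. With DESeq2 759 genes were lower and 410 higher here, in both directions fewer than the study reported for this comparison. The cause of that difference was not tested. Scripts were tested on simulated data. Named are all 39 genes of the set, the called genes of the further lists, near-identical copies holding counts, and Itga5 and Lyz2; other genes were named after their values were seen. A called gene of the further HIF target list is not reported here by name. The set and the lists were chosen with earlier results of these data known. Replicate numbers were not treated as pairs, since same-numbered libraries did not deviate together (correlations of deviations across genes 0.05, -0.09 and 0.04).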

Additional observations from a re-analysis of the deposited data

How the results depend on the processing

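No called gene changed direction in any of 17 alternatives. Of 660 comparisons of a gene's value with its alternative, 632 kept their side of the threshold, 22 lost the call and 6 gained it; among the uncalled genes small values such as those of Pfkl (in 7 alternatives), Hk3, Tpi1 and Vhl (in 2 each) also changed sign. Slc2a1, Hk2, Eno2, Hilpda, Ddit4 and Mxi1 were called in 16 of 17, all but log2(FPKM + 1) without a filter; Ndrg1 was called in 14, Slc16a3 in 12 and Hk1 in 9. The set held 9 lowered genes with DESeq2, voom, median-ratio or upper quartile factors and at least 10 counts in every library, 8 with library totals only and 11 without a count filter (adding Hif1a and P4ha2). Leaving out 1 library gave 7 to 11 lowered genes in the set, 3 to 6 in the glycolysis arm and 4 to 5 in the HIF arm, and 429 to 671 lower and 187 to 420 higher among all genes. With the replicate block the set held 10 lowered genes (5 and 5 in the arms), and all genes 717 lower and 464 higher. With FPKM filtered at 1 in 3 libraries, log2(FPKM + 1) gave 322 lower and 150 higher genes and log2(FPKM + 0.1) 306 and 142, with 3 lowered in the glycolysis arm in both and 6 in the set. Without the FPKM filter 8 genes were lower and 2 higher, and in the set, the glycolysis arm and the HIF arm 0 were called. Without a count filter edgeR called 798 higher genes, and with library totals only 1212 higher and 518 lower, against 517 and 754; that scaling moved the median log2 fold change of all genes from 0.01 to 0.10. Apart from these constructions the cause was not tested. Genes near 1 CPM, such as Ankrd37 and Adm, are limited by depth.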
